A study of Homo sapiens with 27 samples.

Results

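The 31 glycolysis and pentose phosphate genes described here include enzymes that carry glucose to pyruvate and lactate, and those of the pentose phosphate shunt. The set also holds kinases and subunits of pyruvate dehydrogenase, which gate the entry of pyruvate into the citric acid cycle. Members were taken by name from the 20453 genes in each count table. They are the rows of both tables whose Ensembl identifier maps to 1 of 31 listed symbols. All 31 were found in both tables. The cells were THP-1, a human monocytic leukaemia line, turned towards a macrophage state by 24 h with the phorbol ester PMA at 10 ng/ml and then treated for 3 h in 1 of 3 ways. The first group received 100 ng/ml LPS (bacterial lipopolysaccharide) together with 1 µM dexamethasone, a synthetic glucocorticoid (LPS+Dex), as its treatment label reads, although the protocol text does not spell out that the agents were combined. Another received LPS alone, and the third received ethanol and PBS as vehicle. All groups share the PMA step and 1 cell line, and no group received dexamethasone without LPS, so its effect is known only on top of LPS. Poly(A) RNA-seq had 4 libraries per treatment and ribosome profiling had 5, where the sequenced pieces of mRNA are those a ribosome shields (footprints).

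Glycolysis splits glucose into pyruvate and yields ATP without oxygen. Its flux is held at hexokinase, at phosphofructokinase 1 and at pyruvate kinase, and phosphofructokinase 1 is switched on by fructose 2,6-bisphosphate, a signal that the bifunctional PFKFB enzymes make and break down. Pyruvate dehydrogenase kinases (PDK) switch off the pyruvate dehydrogenase complex and so hold pyruvate back from the citric acid cycle, while the pentose phosphate pathway diverts glucose 6-phosphate to NADPH and ribose. Macrophages stimulated with LPS are known for raised glycolysis, and glucocorticoids are known for inducing PDK4 in several tissues.

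Total counts per library were 19.0 to 21.7 M in LPS+Dex, 20.9 to 24.9 M in LPS and 21.8 to 30.7 M in vehicle for RNA-seq, and 11.5 to 24.4 M, 20.8 to 26.1 M and 15.4 to 24.3 M for footprints. Levels are given as CPM, counts per 1 M of the library total after TMM scaling, which corrects for differences in composition. CPM is not divided by transcript length, so levels are compared between samples of a gene and not between genes. Library values stand in the order of the replicate numbers. The labels do not state whether the replicates were separate cultures, so the spread behind each p-value is that between libraries and may be technical. Of 12 macrophage and monocyte markers, 1 (MRC1) stayed under 1 CPM in every RNA library, and the 4 T cell, 3 B cell and 4 epithelial markers stayed under 1 CPM in every library of both assays. Of 4 erythroid markers, 1 reached 1.8 CPM in footprints. The 4 granulocyte markers summed to 548 to 679 CPM in LPS+Dex RNA, 370 to 595 CPM in LPS and 371 to 573 CPM in vehicle, and 1 of them stayed under 1 CPM in every library. The 4 fibroblast markers summed to 22.4 to 26.3 CPM in LPS+Dex RNA, 7.8 to 11.1 CPM in LPS and 7.03 to 9.53 CPM in vehicle, and 3 endothelial markers to 1.84 to 2.87 CPM, 0.259 to 0.642 CPM and 0.484 to 0.752 CPM in the same treatments. COL1A1 carried most of the fibroblast sum, while COL1A2 and DCN, and the endothelial CDH5, stayed under 1 CPM in every RNA library. The fibroblast and endothelial RNA sums were higher with LPS+Dex. In footprints the fibroblast sum was 4.15 to 7.22 CPM in LPS+Dex, inside the LPS range of 3.24 to 10.1 CPM. The endothelial footprint sum was again higher with LPS+Dex, at 2.32 to 5.24 CPM, against 0.405 to 1.32 CPM in LPS and 0.128 to 0.362 CPM in vehicle. The 12 macrophage and monocyte markers summed to 4645 to 4873 CPM in LPS+Dex RNA, 4546 to 4883 CPM in LPS and 5812 to 6168 CPM in vehicle. The part of these marker sums in the members' changes was not tested. Among footprints, replicate 4 of each treatment differed from the other 4, and its values stand among the library values printed below.

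A count of members is read here against the share of all tested genes that passed the same test. Changes were tested with edgeR's quasi-likelihood test and Benjamini-Hochberg adjustment over all genes tested, and every adjusted p below comes from it unless another tool is named; calls are made below an adjusted p of 0.05. Translational efficiency (TE) is the footprint change minus the RNA change on the log2 scale, in a joint fit of both assays. Of the 31 members, 30 had enough counts to be tested in each assay. PGAM1, a phosphoglycerate mutase, did not, with 3 to 9 counts per RNA library and 0 to 5 per footprint library.

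Promoters are shown for PFKFB3, PFKFB4 and PDK4, 3 control-point genes called in both assays with LPS and chosen after their values were seen. Each line gives a RefSeq window on GRCh38.p14 from 250 bases before to 50 bases after an annotated start, written 5′ to 3′ along the gene. Capitals mark matches on either strand. The motifs searched were the hypoxia-response core GCGTG, which reads CACGC on the opposite strand, and the E-box CACGTG. The E-box also holds the second hypoxia core, ACGTG. The others were the NF-kB consensus and the short glucocorticoid receptor motif AGAACA, which on the opposite strand reads TGTTCT.
PFKFB3, first start, chr10:6144671-6144970, plus strand: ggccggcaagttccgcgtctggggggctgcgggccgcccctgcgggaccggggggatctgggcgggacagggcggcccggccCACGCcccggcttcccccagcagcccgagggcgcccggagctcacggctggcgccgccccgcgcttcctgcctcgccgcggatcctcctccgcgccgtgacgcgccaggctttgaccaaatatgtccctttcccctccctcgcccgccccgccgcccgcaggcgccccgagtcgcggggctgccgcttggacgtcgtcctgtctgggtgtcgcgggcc
PFKFB3, second start, chr10:6202682-6202981, plus strand: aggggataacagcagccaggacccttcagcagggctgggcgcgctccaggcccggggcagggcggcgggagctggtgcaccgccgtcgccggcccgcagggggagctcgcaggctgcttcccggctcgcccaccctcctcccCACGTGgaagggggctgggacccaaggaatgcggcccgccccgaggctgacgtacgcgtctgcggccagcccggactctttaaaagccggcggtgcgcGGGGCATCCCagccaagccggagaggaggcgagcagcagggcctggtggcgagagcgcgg
PFKFB4, chr3:48556754-48557053, minus strand: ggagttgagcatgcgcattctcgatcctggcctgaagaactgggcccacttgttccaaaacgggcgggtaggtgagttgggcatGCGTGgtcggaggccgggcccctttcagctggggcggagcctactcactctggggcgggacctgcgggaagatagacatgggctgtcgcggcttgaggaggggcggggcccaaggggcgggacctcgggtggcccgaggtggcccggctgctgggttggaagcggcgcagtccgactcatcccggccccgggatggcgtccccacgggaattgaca
PDK4, chr7:95596467-95596766, minus strand: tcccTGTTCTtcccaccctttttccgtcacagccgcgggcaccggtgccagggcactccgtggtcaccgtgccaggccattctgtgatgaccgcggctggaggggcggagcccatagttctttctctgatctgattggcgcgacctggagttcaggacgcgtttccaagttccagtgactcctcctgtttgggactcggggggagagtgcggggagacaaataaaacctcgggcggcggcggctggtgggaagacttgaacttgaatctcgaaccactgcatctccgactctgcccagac

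The second PFKFB3 window holds CACGTG 108 bases before the start and an NF-kB match 10 bases before it. The first holds CACGC 168 bases before its start, the PFKFB4 window GCGTG 166 bases before, and the PDK4 window TGTTCT 246 bases before. Among 34943 distinct promoter windows of the same length, 21.4% hold ACGTG, 36.5% GCGTG, 7.23% CACGTG, 14.8% AGAACA and 5.9% the NF-kB consensus on either strand. Promoter windows were found for 30 of the 31 members, with PFKFB2 having no entry, with 54 windows in all. Of these 54, ACGTG is in 21, GCGTG in 22, CACGTG in 8, AGAACA in 5 and the NF-kB consensus in 4. Windows of the same gene can overlap, so a site may be counted more than once. By member, ACGTG is found in 17 of 30, GCGTG in 19, CACGTG in 8, AGAACA in 3 and the NF-kB consensus in 3. Either hypoxia core is in 33 of the 54, beside 48.4% of all windows. A match is a description of letters and not of binding.

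After 3 h of LPS the members moved in both directions in about the proportions of all genes. In RNA, 9 of 30 were higher and 11 lower than in vehicle (30% and 36.7%), against 28.6% and 33.6% of all 13327 genes tested. In footprints 7 were higher and 7 lower (23.3% each), against 25.4% and 27.2% of 12197 genes. The median log2 fold change of the members was -0.12 in RNA and 0.06 in footprints, against -0.05 and -0.04 over all genes. Members higher in both assays were 7 (ENO1, PDHA1, PFKFB3, PFKL, PGD, TALDO1 and TKT), members lower in both were 7 (HK1, PDHB, PDK2, PDK3, PDK4, PFKFB2 and PFKFB4), and 0 were called in opposite directions.

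Dexamethasone on top of LPS moved fewer members. In RNA 5 of 30 were higher and 5 lower in LPS+Dex than in LPS (16.7% each), against 15.5% and 15.4% of all genes tested. In footprints 4 were higher and 2 lower (13.3% and 6.67%), against 9.08% and 7.99%. The members' median log2 fold change was -0.02 in RNA and -0.01 in footprints, against 0.01 and 0.02 over all genes. PDK4, LDHA and PDHB were higher in both assays, and PFKFB3 was the member lower in both. The LPS libraries serve in both comparisons, so the changes of a gene in the 2 are not independent of each other. With the replicate number as a block, the footprint count was 12 (7 higher and 5 lower), when 30.9% of all genes passed, and the additional calls are given with their genes.

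**Figure D1:**
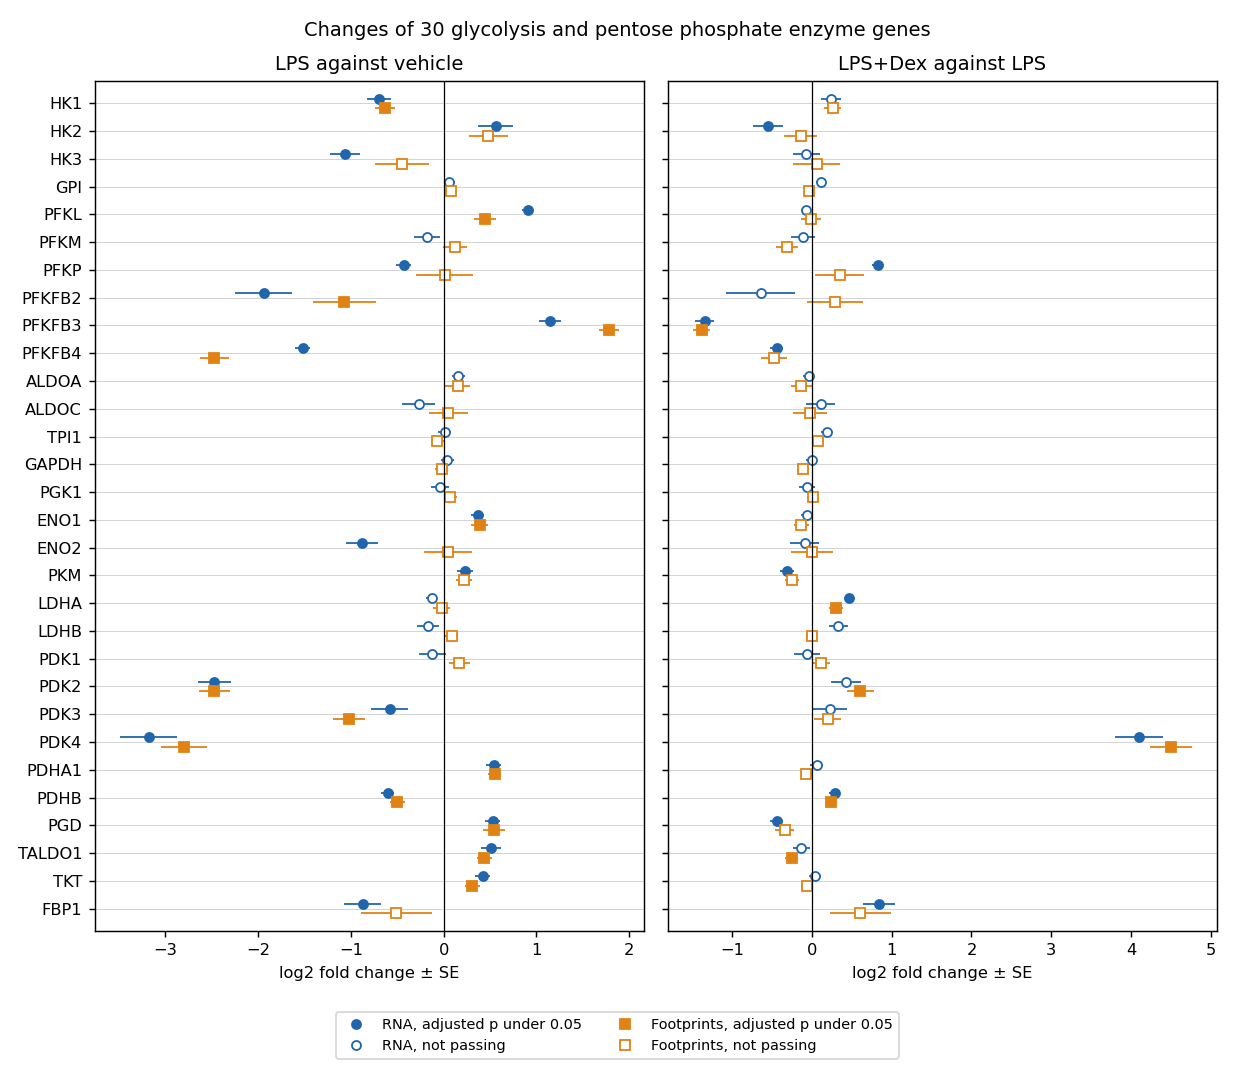
Log2 fold change with its standard error (horizontal axis) of the 30 tested members (rows), for LPS against vehicle on the left and LPS+Dex against LPS on the right; circles stand for RNA and squares for footprints, filled where the adjusted p was under 0.05. PDK4 lies at -3.18 (RNA) and -2.80 (footprints) in the LPS panel and at 4.10 and 4.50 in the dexamethasone panel, while most rows lie near the zero line.

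The bifunctional PFKFB enzymes set the level of fructose 2,6-bisphosphate, and their genes went in opposite directions with LPS. PFKFB3 (ENSG00000170525, chromosome 10, 6144921 to 6326637), whose enzyme strongly favours making that signal, had 44.1, 40.7, 49.8 and 37.6 CPM in the RNA of LPS+Dex cells, 110, 107, 118 and 101 CPM in LPS cells and 49, 39.5, 59.8 and 48.2 CPM in vehicle cells. Every LPS library lay above every library of the other treatments, and LPS+Dex overlapped vehicle. Its footprints were 52.3, 51.1, 49.1, 58.8 and 46.8 CPM in LPS+Dex, 144, 144, 131, 124 and 130 CPM in LPS and 46.7, 42, 41.7, 30 and 35.3 CPM in vehicle. Here too LPS stood clear, and the LPS+Dex libraries all lay above vehicle, the nearest pair being 46.8 and 46.7 CPM. The LPS change was 1.15 ± 0.12 (SE, adjusted p = 1.3e-06) in RNA and 1.78 ± 0.11 (SE, adjusted p = 4.2e-09) in footprints on the log2 scale, a 2.22-fold and a 3.44-fold rise. Against LPS, LPS+Dex changed PFKFB3 by -1.34 ± 0.12 (SE, adjusted p = 9.7e-07) in RNA and -1.38 ± 0.11 (SE, adjusted p = 2.9e-07) in footprints. Relative to vehicle, LPS+Dex left a footprint rise of 0.40 ± 0.11 (SE, adjusted p = 0.0055), which was 0.27 without the libraries numbered 4, beside an RNA value of -0.19 ± 0.12 (SE, adjusted p = 0.18).

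PFKFB4 (ENSG00000114268, chromosome 3, 48517684 to 48563136), the isozyme with more balanced kinase and phosphatase activity, moved the other way. Its RNA stood at 28.5, 31.3, 29.1 and 30.9 CPM in LPS+Dex, 41, 44.6, 36.2 and 40.3 CPM in LPS and 119, 107, 111 and 127 CPM in vehicle. The 3 groups did not overlap, with LPS+Dex lowest and vehicle highest. Footprints counted 10.8, 12.2, 11.4, 17.5 and 9.61 CPM in LPS+Dex, 18, 16.5, 14.6, 21 and 14.8 CPM in LPS and 93, 83.5, 87.3, 117 and 90.1 CPM in vehicle. The number 4 library was the highest of its group in all 3 treatments, which makes LPS+Dex and LPS overlap, and vehicle stood far above both. LPS lowered PFKFB4 by a log2 change of -1.52 ± 0.08 (SE, adjusted p = 1.6e-09) in RNA and -2.47 ± 0.16 (SE, adjusted p = 1.2e-08) in footprints. LPS+Dex against LPS gave -0.44 ± 0.08 (SE, adjusted p = 0.00095) in RNA, and in footprints -0.47 ± 0.16 (SE, adjusted p = 0.06), which became -0.48 ± 0.08 with an adjusted p of 0.00024 under the replicate block.

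PFKFB2 (ENSG00000123836), an isozyme found in heart and other tissues, is a low-count gene here, with 3 to 85 counts per RNA library and 6 to 67 per footprint library. RNA levels were 0.353, 0.144, 0.379 and 0.433 CPM in LPS+Dex, 0.71, 0.414, 0.367 and 0.519 CPM in LPS and 1.51, 1.24, 2.46 and 2.49 CPM in vehicle. Vehicle lay above both stimulated groups, which overlapped each other. In footprints the values were 0.841, 0.519, 1.49, 0.476 and 1.32 CPM in LPS+Dex, 0.809, 0.596, 0.946, 0.387 and 0.943 CPM in LPS and 1.49, 1.58, 1.77, 0.826 and 2.15 CPM in vehicle. The number 4 library was the lowest of each group, and the vehicle one, at 0.826 CPM, falls among the stimulated values. LPS changed PFKFB2 by -1.94 ± 0.31 (SE, adjusted p = 8.5e-05) in RNA and -1.07 ± 0.34 (SE, adjusted p = 0.014) in footprints, and LPS+Dex against vehicle gave -2.57 ± 0.34 (SE, adjusted p = 2e-05) in RNA and -0.78 ± 0.34 (SE, adjusted p = 0.069) in footprints. That last footprint value passed under the replicate block, at -0.81 ± 0.23 with an adjusted p of 0.0065.

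**Figure D2:**
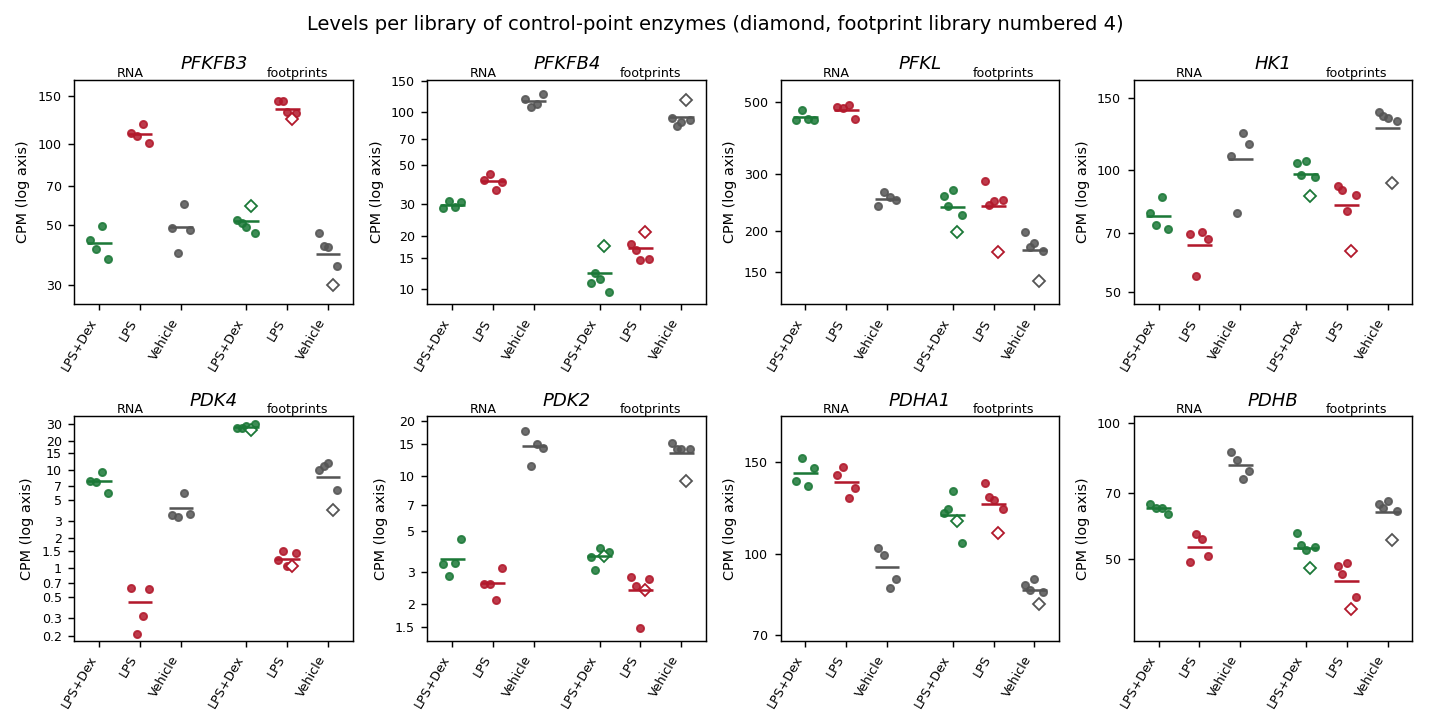
CPM per library on logarithmic axes (vertical) for 8 control-point genes, RNA on the left and footprints on the right of each panel, with LPS+Dex, LPS and vehicle from left to right; bars are group means and open diamonds the footprint libraries numbered 4. PFKFB3 peaks in LPS, at 101 to 118 CPM in RNA, PFKFB4 and PDK2 peak in vehicle, and PDK4 is lowest in LPS, at 0.207 to 0.621 CPM in RNA.

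Hexokinase takes glucose into the pathway. HK1 (ENSG00000156515, chromosome 10, 69270000 to 69401882), the broadly expressed isozyme, fell with LPS. RNA libraries held 78.5, 73.1, 85.6 and 71.6 CPM in LPS+Dex, 69.4, 54.9, 70.2 and 67.4 CPM in LPS and 108, 78.3, 123 and 116 CPM in vehicle. LPS was below both other groups without overlap, and vehicle replicate 2, at 78.3 CPM, lay inside the LPS+Dex range. In footprints HK1 had 104, 97.1, 105, 86.3 and 96.3 CPM in LPS+Dex, 91.1, 89, 79.4, 63.1 and 86.6 CPM in LPS and 139, 136, 134, 93 and 132 CPM in vehicle. Replicate 4 was lowest in every treatment, and LPS and vehicle were separate by a narrow gap, 91.1 against 93 CPM. The LPS change was -0.70 ± 0.13 (SE, adjusted p = 0.00026) in RNA and -0.63 ± 0.11 (SE, adjusted p = 0.00028) in footprints. For LPS+Dex against LPS the footprint value of 0.26 ± 0.11 (SE, adjusted p = 0.15) passed under the replicate block (0.26 ± 0.06, adjusted p = 0.0045).

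HK2 (ENSG00000159399, chromosome 2, 74834127 to 74893359), the inducible isozyme, rose in RNA with LPS. It had 36.5, 31.5, 38.2 and 28.8 CPM in LPS+Dex, 47.8, 40.5, 57.5 and 52.1 CPM in LPS and 30, 20.8, 44.1 and 39.2 CPM in vehicle. LPS lay above LPS+Dex but overlapped vehicle, whose replicates ran from 20.8 to 44.1 CPM. Footprint levels were 115, 101, 113, 161 and 99 CPM in LPS+Dex, 129, 111, 116, 181 and 114 CPM in LPS and 92.9, 80.1, 78.6, 145 and 71.5 CPM in vehicle. As CPM, replicate 4 was the highest in each treatment by a wide margin, and among the other 4 every LPS library exceeded every vehicle library. Before TMM scaling, replicate 4 was not the highest in LPS or LPS+Dex. In LPS it held 2801 counts of 24.7 M, against 3028 of 24.3 M in replicate 1. In LPS+Dex it held 2368 of 23.5 M against 2868 of 24.4 M, and in vehicle 2108 of 15.4 M against 2562 of 22.1 M. LPS changed HK2 RNA by 0.56 ± 0.19 (SE, adjusted p = 0.02), a call lost without vehicle RNA replicate 1 or LPS RNA replicate 3 (adjusted p of 0.053 to 0.059). In footprints the value was 0.48 ± 0.21 (SE, adjusted p = 0.066), and 0.50 ± 0.06 with an adjusted p of 2.5e-06 under the replicate block. LPS+Dex against LPS changed HK2 RNA by -0.55 ± 0.19 (SE, adjusted p = 0.042), and this call was lost without LPS RNA replicate 1, 3 or 4 or LPS+Dex RNA replicate 1, 2 or 4 (adjusted p of 0.059 to 0.12).

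HK3 (ENSG00000160883), a hexokinase of myeloid cells, had 3.63, 3.83, 4.54 and 5.52 CPM in LPS+Dex RNA, 4.21, 5.79, 4.08 and 4.33 CPM in LPS and 10.8, 10.4, 8.09 and 9.09 CPM in vehicle. The vehicle libraries all lay above the other 8. Its RNA fell with LPS, with a log2 change of -1.06 ± 0.16 (SE, adjusted p = 4.9e-05), and its footprints, with 24 to 90 counts per library, gave -0.45 ± 0.29 (SE, adjusted p = 0.21) and did not pass. Those footprints were 2.04, 1.44, 1.99, 3.4 and 1.56 CPM in LPS+Dex, 1.28, 2.24, 1.53, 2.9 and 2 CPM in LPS and 3.26, 1.78, 2.82, 3.65 and 2.08 CPM in vehicle, with overlapping groups and replicate 4 the highest of each. GPI, which turns glucose 6-phosphate into fructose 6-phosphate, spanned only 246 to 303 CPM in RNA and 382 to 449 CPM in footprints over all treatments and was not called between LPS and vehicle or between LPS+Dex and LPS.

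Phosphofructokinase 1 commits the sugar to glycolysis, and its subunit genes differed. PFKL (ENSG00000141959, chromosome 21, 44300053 to 44327373), the liver-type subunit, had 440, 473, 441 and 438 CPM in the RNA of LPS+Dex cells, 480, 478, 487 and 442 CPM in LPS and 238, 264, 255 and 250 CPM in vehicle. Both stimulated groups lay far above vehicle and overlapped each other. Footprints were 256, 238, 268, 199 and 224 CPM in LPS+Dex, 285, 241, 247, 172 and 249 CPM in LPS and 198, 179, 184, 140 and 174 CPM in vehicle. The number 4 library was lowest in each treatment, and LPS replicate 4, at 172 CPM, lay below 4 of the 5 vehicle libraries. LPS changed PFKL by 0.91 ± 0.06 (SE, adjusted p = 1e-08) in RNA and 0.45 ± 0.12 (SE, adjusted p = 0.0061) in footprints. LPS+Dex did not change it further in either assay past the threshold.

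PFKP (ENSG00000067057, chromosome 10, 3067548 to 3136805), the platelet-type subunit, fell in RNA with LPS and was above vehicle with LPS+Dex. RNA values were 62.8, 66.6, 65.6 and 66.4 CPM in LPS+Dex, 35.6, 37.4, 34.1 and 39.6 CPM in LPS and 52.6, 54, 45.7 and 45.3 CPM in vehicle. The 3 groups were fully separate, with LPS lowest and LPS+Dex highest. Footprints were 40.7, 36.6, 38.5, 81.7 and 39 CPM in LPS+Dex, 29.8, 25.4, 30.4, 69.2 and 30.6 CPM in LPS and 33.4, 33.5, 29.6, 57.5 and 31.3 CPM in vehicle. Library number 4 stood well above its group in each treatment, and the other 4 LPS+Dex libraries lay above the other LPS and vehicle libraries. The RNA change was -0.43 ± 0.08 (SE, adjusted p = 3e-04) with LPS and 0.83 ± 0.08 (SE, adjusted p = 1.8e-06) for LPS+Dex against LPS. The footprint change for LPS+Dex against LPS was 0.35 ± 0.31 (SE, adjusted p = 0.53), and 0.38 ± 0.08 with an adjusted p of 0.0013 under the replicate block. PFKM, the muscle-type subunit, ranged from 4.6 to 7.68 CPM in RNA and 2.61 to 4.43 CPM in footprints and was called in no comparison.

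Below phosphofructokinase, ENO1, ENO2 and PKM were called in RNA with LPS. ENO1 (ENSG00000074800, chromosome 1, 8861000 to 8878686), the main enolase, had 2160, 2000, 2130 and 1970 CPM in RNA with LPS+Dex, 2180, 2150, 2190 and 2070 CPM with LPS and 1850, 1540, 1640 and 1610 CPM with vehicle. All stimulated libraries lay above all vehicle libraries. Footprint levels were 3220, 3090, 3140, 3110 and 2640 CPM in LPS+Dex, 3580, 3350, 3390, 3400 and 2960 CPM in LPS and 2570, 2570, 2520, 2720 and 2380 CPM in vehicle. LPS lay above vehicle in every library, and LPS+Dex replicate 5, the lowest of its group, reached into the vehicle range. The LPS rise was 0.37 ± 0.07 (SE, adjusted p = 0.00021) in RNA and 0.39 ± 0.09 (SE, adjusted p = 0.0024) in footprints, a 1.29-fold and a 1.31-fold change. PKM, pyruvate kinase, averaged 1980 ± 171 CPM in LPS+Dex RNA, 2460 ± 140 CPM in LPS and 2100 ± 231 CPM in vehicle (mean ± SD, n = 4 each). Its RNA changed by 0.23 ± 0.09 (SE, adjusted p = 0.03) with LPS and by -0.31 ± 0.09 (SE, adjusted p = 0.014) for LPS+Dex against LPS. The LPS call was lost without vehicle RNA replicate 2, LPS RNA replicate 1 or LPS RNA replicate 3 (adjusted p of 0.058 to 0.083). In footprints the same comparisons gave 0.22 ± 0.09 (SE, adjusted p = 0.059) and -0.25 ± 0.09 (SE, adjusted p = 0.081), and both passed under the replicate block (0.22 ± 0.05, adjusted p = 0.0016, and -0.25 ± 0.05, adjusted p = 0.0015).

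GAPDH, a glycolytic enzyme often used as a reference gene, had 420, 435, 417 and 406 CPM in LPS+Dex RNA, 417, 446, 430 and 388 CPM in LPS and 456, 428, 384 and 371 CPM in vehicle. The 3 groups overlapped, and it was called in no comparison of either assay. Its footprints ran from 337 to 380 CPM in LPS+Dex, 332 to 413 CPM in LPS and 365 to 423 CPM in vehicle. For LPS+Dex against vehicle the footprints passed only under the replicate block, at -0.13 ± 0.05 with an adjusted p of 0.042. ALDOA, ALDOC, TPI1 and PGK1, which act between fructose 1,6-bisphosphate and 3-phosphoglycerate, were not called in either assay between LPS and vehicle or between LPS+Dex and LPS, apart from ALDOA footprints, which under the block rose with LPS by 0.15 ± 0.05 (adjusted p = 0.021). Replicate 4 was the highest ALDOA footprint library of each treatment, at 3950 CPM in LPS+Dex, 4110 CPM in LPS and 3790 CPM in vehicle. ENO2, a second enolase, had 2.88, 2.54, 2.49 and 3.41 CPM in LPS+Dex RNA, 2.17, 3.57, 3.07 and 3.24 CPM in LPS and 6.29, 5.57, 4.42 and 5.98 CPM in vehicle. Vehicle lay above both stimulated groups, and the log2 change with LPS was -0.88 ± 0.17 (SE, adjusted p = 0.00042). ENO2 footprints were 3.72, 3.59, 3.65, 8.78 and 3.76 CPM in LPS+Dex, 4.81, 4.27, 4.46, 5.87 and 4.09 CPM in LPS and 5.59, 3.35, 4.1, 6.12 and 3.62 CPM in vehicle, with overlapping groups and replicate 4 the highest of each. RefSeq names 65 pseudogenes after GAPDH, 13 after PGAM1, 6 after LDHA, 5 after PKM, 4 each after TPI1 and ENO1 and 1 to 3 after 8 other members, and none of them has a row in the tables. How reads with several matches were counted is not given in the sources used here, so the levels of these genes are uncertain.

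Lactate dehydrogenase regenerates NAD by turning pyruvate into lactate. LDHA (ENSG00000134333, chromosome 11, 18394563 to 18408425) had 341, 325, 303 and 297 CPM in LPS+Dex RNA, 232, 237, 229 and 218 CPM in LPS and 265, 246, 239 and 249 CPM in vehicle. LPS+Dex lay above every other library. Footprints were 441, 410, 375, 358 and 347 CPM in LPS+Dex, 320, 317, 345, 280 and 310 CPM in LPS and 319, 326, 346, 259 and 345 CPM in vehicle. Again LPS+Dex lay above the other groups, the nearest pairs being 347 CPM in LPS+Dex against 345 CPM in LPS and 346 CPM in vehicle. LPS+Dex raised LDHA over LPS by 0.47 ± 0.06 (SE, adjusted p = 4.4e-05) in RNA and 0.30 ± 0.09 (SE, adjusted p = 0.035) in footprints. The footprint call was lost in 9 of 15 fits that left out 1 library (adjusted p of 0.052 to 0.11) and held without vehicle replicates 3, 4 or 5, LPS replicate 3 or LPS+Dex replicates 4 or 5. It was not called with LPS against vehicle in either assay, and LDHB, whose product favours the reverse reaction, was called in no comparison, with 53.6 to 86.4 CPM in RNA and 93.1 to 119 CPM in footprints.

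**Figure D3:**
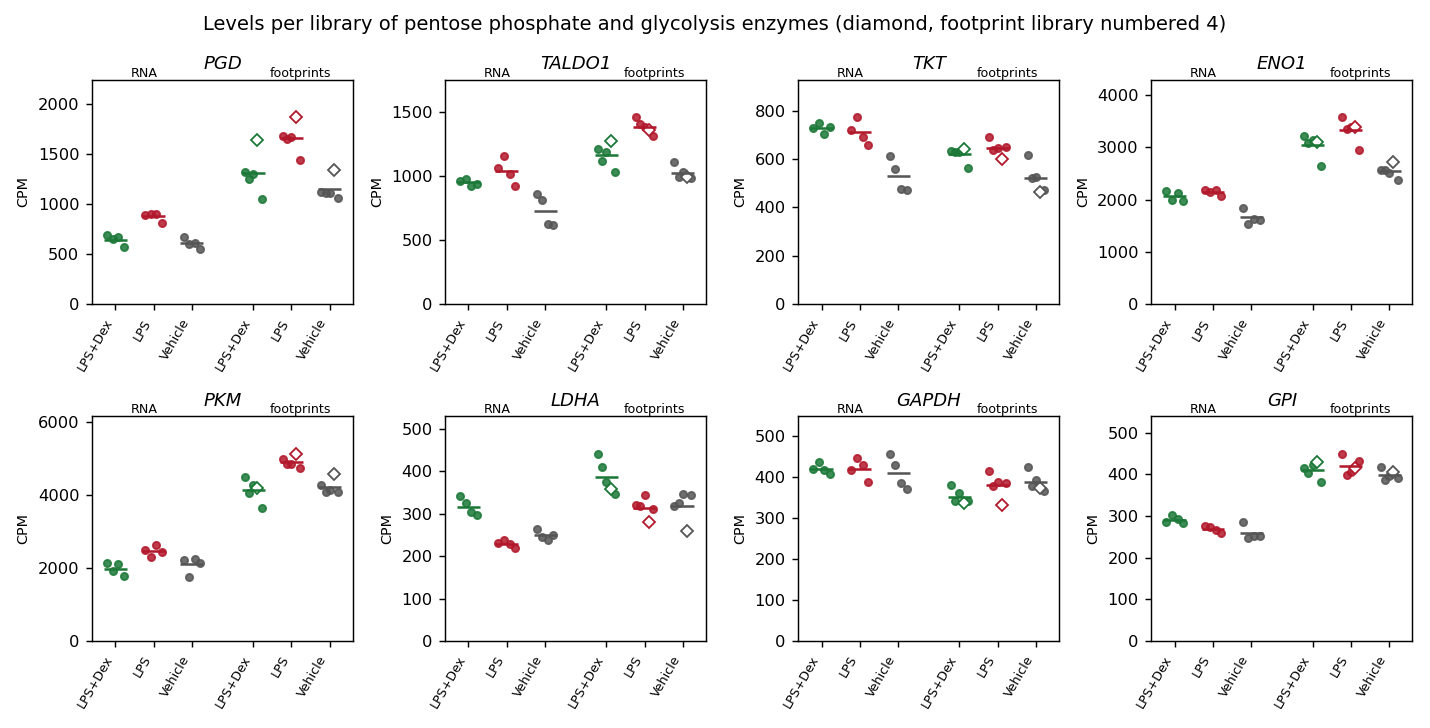
CPM per library (vertical axes, from 0) for 8 members, with RNA left and footprints right in each panel and LPS+Dex, LPS and vehicle from left to right; bars are means and open diamonds the footprint libraries numbered 4. PGD is highest in LPS in RNA (812 to 906 CPM), LDHA is highest in LPS+Dex, and GAPDH overlaps across the 3 treatments.

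The pyruvate dehydrogenase kinases held the widest range of changes. PDK4 (ENSG00000004799, chromosome 7, 95583499 to 95596516), a kinase induced by fasting and glucocorticoids in other tissues, had 7.82, 7.61, 9.68 and 5.85 CPM in LPS+Dex RNA, 0.621, 0.207, 0.321 and 0.606 CPM in LPS and 3.48, 3.34, 5.9 and 3.53 CPM in vehicle. LPS lay below both other groups, by a wide margin, while vehicle replicate 3, at 5.9 CPM, just exceeded the lowest LPS+Dex library at 5.85 CPM. In footprints the values were 27.5, 27.6, 28.9, 26.3 and 30 CPM in LPS+Dex, 1.19, 1.49, 1.04, 1.03 and 1.41 CPM in LPS and 10.1, 11, 11.8, 3.92 and 6.29 CPM in vehicle. The 3 groups were separate, with LPS lowest and LPS+Dex highest. LPS changed PDK4 by -3.18 ± 0.31 (SE, adjusted p = 8.2e-07) in RNA and -2.80 ± 0.25 (SE, adjusted p = 3.2e-07) in footprints. LPS+Dex against LPS gave 4.10 ± 0.30 (SE, adjusted p = 1.7e-07) in RNA and 4.50 ± 0.26 (SE, adjusted p = 3e-08) in footprints, a 17.1-fold and a 22.6-fold rise. Counts behind the LPS libraries were low, from 4 in RNA and 16 in footprints upward, so the size of these folds rests on few reads. Against vehicle, LPS+Dex was higher by 0.92 ± 0.22 (SE, adjusted p = 0.0029) in RNA and 1.70 ± 0.22 (SE, adjusted p = 1.7e-05) in footprints.

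PDK2 (ENSG00000005882, chromosome 17, 50094737 to 50112152), a widely expressed kinase of the family, fell with LPS by a like amount in both assays. RNA levels were 3.33, 2.87, 3.35 and 4.55 CPM in LPS+Dex, 2.57, 2.59, 2.11 and 3.16 CPM in LPS and 17.6, 11.3, 15 and 14.3 CPM in vehicle. Vehicle lay far above the stimulated groups, which overlapped in RNA. Footprints were 3.64, 3.07, 4.06, 3.67 and 3.85 CPM in LPS+Dex, 2.81, 2.53, 1.49, 2.39 and 2.75 CPM in LPS and 15.1, 14.1, 14, 9.43 and 14.1 CPM in vehicle. There every LPS+Dex library exceeded every LPS library, and vehicle was highest. The LPS change was -2.47 ± 0.18 (SE, adjusted p = 2.9e-08) in RNA and -2.47 ± 0.17 (SE, adjusted p = 1.8e-08) in footprints. LPS+Dex raised the footprints over LPS by 0.61 ± 0.17 (SE, adjusted p = 0.024), a call lost without LPS+Dex replicate 3 or 5 (adjusted p of 0.055 to 0.06), beside 0.43 ± 0.19 (SE, adjusted p = 0.1) in RNA.

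PDK3 (ENSG00000067992, chromosome X, 24465286 to 24550466) also fell with LPS. RNA held 2.22, 3.21, 3.03 and 2.44 CPM in LPS+Dex, 1.64, 2.74, 1.79 and 3.11 CPM in LPS and 3.9, 2.93, 3.67 and 3.35 CPM in vehicle. The groups overlapped in RNA, where libraries held 37 to 127 counts. Footprints held 4.36, 4.19, 3.81, 2.86 and 4.34 CPM in LPS+Dex, 2.85, 3.48, 3.92, 3.03 and 3.85 CPM in LPS and 7.15, 7.23, 8.17, 4.47 and 7.86 CPM in vehicle. Vehicle lay above the stimulated groups, with its replicate 4 closest to them at 4.47 CPM. LPS changed PDK3 by -1.02 ± 0.17 (SE, adjusted p = 1e-04) in footprints and -0.58 ± 0.20 (SE, adjusted p = 0.023) in RNA, where the call was lost without vehicle RNA replicate 1 or LPS RNA replicates 1 or 3 (adjusted p of 0.057 to 0.081). PDK1, a kinase known as a hypoxia target, ranged from 5.22 to 8.44 CPM in RNA and 7.64 to 11.6 CPM in footprints and was not called with LPS or with dexamethasone on top of it.

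The 2 subunits of the pyruvate dehydrogenase E1 enzyme, which these kinases phosphorylate on the alpha chain, went apart with LPS. PDHA1 (ENSG00000131828, chromosome X, 19343927 to 19361718), the alpha chain, had 138, 153, 135 and 146 CPM in LPS+Dex RNA, 142, 147, 128 and 134 CPM in LPS and 103, 99.6, 86.3 and 89.8 CPM in vehicle. Both stimulated groups exceeded vehicle in every library. Footprints were 120, 122, 132, 116 and 105 CPM in LPS+Dex, 137, 129, 127, 110 and 122 CPM in LPS and 87.4, 85.4, 89.8, 80.4 and 84.6 CPM in vehicle, again with vehicle below the others throughout. LPS raised PDHA1 by 0.54 ± 0.08 (SE, adjusted p = 3e-05) in RNA and 0.55 ± 0.07 (SE, adjusted p = 1e-05) in footprints.

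PDHB (ENSG00000168291, chromosome 3, 58427630 to 58433832), the beta chain, had 66.2, 65.1, 65.1 and 63 CPM in LPS+Dex RNA, 49.3, 56.8, 55.4 and 50.9 CPM in LPS and 86.3, 83.1, 75.3 and 78.3 CPM in vehicle. The 3 groups were separate, LPS lowest and vehicle highest. In footprints PDHB had 57.3, 53.9, 52.4, 47.9 and 53.2 CPM in LPS+Dex, 48.3, 46.3, 49.1, 38.8 and 41.2 CPM in LPS and 66.3, 64.9, 67.4, 55.2 and 63.8 CPM in vehicle. LPS stayed below vehicle, and LPS+Dex overlapped both. LPS lowered PDHB, with changes of -0.60 ± 0.07 (SE, adjusted p = 4.1e-06) in RNA and -0.50 ± 0.08 (SE, adjusted p = 6.1e-05) in footprints, and LPS+Dex against LPS gave 0.29 ± 0.07 (SE, adjusted p = 0.0058) and 0.24 ± 0.08 (SE, adjusted p = 0.04). The last of these calls was lost in 11 of 15 fits that left out 1 footprint library (adjusted p of 0.061 to 0.12) and held without vehicle replicate 4, LPS replicates 1 or 3 or LPS+Dex replicate 4.

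All 3 pentose phosphate members rose with LPS in both assays. PGD (ENSG00000142657, chromosome 1, 10399064 to 10420511), which makes NADPH in the oxidative branch, had 692, 648, 670 and 576 CPM in LPS+Dex RNA, 892, 906, 906 and 812 CPM in LPS and 673, 600, 613 and 554 CPM in vehicle. LPS lay above all other libraries, and LPS+Dex overlapped vehicle. Footprints were 1320, 1250, 1300, 1640 and 1050 CPM in LPS+Dex, 1680, 1650, 1670, 1870 and 1440 CPM in LPS and 1120, 1110, 1110, 1340 and 1060 CPM in vehicle. Replicate 4 was highest in each treatment, and LPS exceeded vehicle in every library. LPS raised PGD by 0.53 ± 0.08 (SE, adjusted p = 3.2e-05) in RNA and 0.54 ± 0.12 (SE, adjusted p = 0.0017) in footprints. LPS+Dex against LPS gave -0.44 ± 0.08 (SE, adjusted p = 0.00042) in RNA and, in footprints, -0.34 ± 0.12 (SE, adjusted p = 0.069), which passed under the replicate block (-0.35 ± 0.05, adjusted p = 9.3e-05).

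TALDO1 (ENSG00000177156), the transaldolase of the non-oxidative branch, had 964, 976, 922 and 939 CPM in LPS+Dex RNA, 1060, 1160, 1020 and 923 CPM in LPS and 858, 817, 625 and 620 CPM in vehicle. Both stimulated groups lay above vehicle. In footprints it had 1210, 1120, 1190, 1270 and 1030 CPM in LPS+Dex, 1460, 1410, 1380, 1360 and 1310 CPM in LPS and 1110, 990, 1030, 991 and 985 CPM in vehicle. LPS lay above both other groups, and LPS+Dex overlapped vehicle. The LPS change was 0.51 ± 0.11 (SE, adjusted p = 0.00085) in RNA and 0.44 ± 0.08 (SE, adjusted p = 0.00028) in footprints. LPS+Dex lowered the footprints relative to LPS, a change of -0.25 ± 0.08 (SE, adjusted p = 0.043), a call lost in 10 of 15 fits that left out 1 library (adjusted p of 0.051 to 0.1) and kept without vehicle replicates 1, 4 or 5, LPS replicate 5 or LPS+Dex replicate 4.

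TKT (ENSG00000163931), the transketolase of the same branch, had 730, 750, 702 and 732 CPM in LPS+Dex RNA, 719, 773, 689 and 659 CPM in LPS and 614, 558, 477 and 473 CPM in vehicle. Vehicle lay below the rest. Its footprints were 635, 630, 629, 641 and 562 CPM in LPS+Dex, 691, 636, 644, 602 and 648 CPM in LPS and 618, 523, 527, 463 and 471 CPM in vehicle, with vehicle replicate 1 inside the LPS range and the other 4 below it. LPS raised TKT by 0.42 ± 0.08 (SE, adjusted p = 0.00064) in RNA and 0.31 ± 0.08 (SE, adjusted p = 0.006) in footprints. Of 8 other tested pentose phosphate genes, 2 were higher and 1 lower in RNA with LPS. In footprints 0 were higher and 2 lower, and 1 and 5 under the replicate block, where 67.1% of all genes passed.

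FBP1 (ENSG00000165140, chromosome 9, 94603133 to 94640263), the gluconeogenic enzyme that undoes the phosphofructokinase step, had 6, 4.79, 5.57 and 7.85 CPM in LPS+Dex RNA, 2.88, 4.24, 2.8 and 3.68 CPM in LPS and 6.42, 5.49, 4.83 and 8.06 CPM in vehicle. LPS lay below both other groups, which overlapped. Footprints were 6.49, 5.83, 6.13, 16.5 and 8.78 CPM in LPS+Dex, 4.04, 4.42, 4.23, 11.5 and 4.68 CPM in LPS and 5.22, 6.34, 6.4, 13.6 and 9.72 CPM in vehicle. The number 4 library was highest in every treatment, and without it LPS was again below both others. The RNA change was -0.87 ± 0.20 (SE, adjusted p = 0.0018) with LPS and 0.84 ± 0.20 (SE, adjusted p = 0.0062) for LPS+Dex against LPS. In footprints the same comparisons gave -0.51 ± 0.38 (SE, adjusted p = 0.28) and 0.61 ± 0.38 (SE, adjusted p = 0.35), and both passed under the replicate block (-0.56 ± 0.12, adjusted p = 0.00059, and 0.61 ± 0.12, adjusted p = 0.00087).

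**Figure D4:**
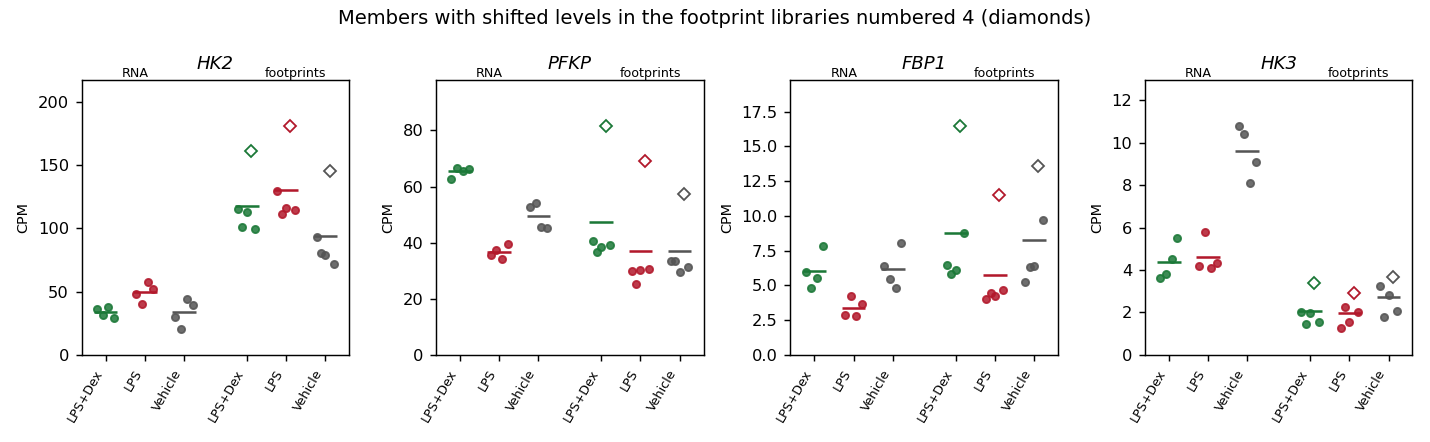
CPM per library (vertical axes, from 0) of HK2, PFKP, FBP1 and HK3, RNA left and footprints right, with LPS+Dex, LPS and vehicle from left to right; bars are means and open diamonds the footprint libraries numbered 4. The diamond is the highest footprint value in every group, for PFKP at 81.7, 69.2 and 57.5 CPM.

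HK2, PFKP, FBP1 and HK3 are the 4 members whose footprint level in library number 4 exceeded the mean of the other 4 by over 0.5 on the log2 scale in all 3 treatments, and PFKL and PFKFB2 were lower by over 0.3 in all 3. The members together took 1.11% of counts in LPS+Dex footprint library number 4, 1.21% in LPS and 1.56% in vehicle. In the other footprint libraries their share was 1.52% to 1.75% in LPS+Dex, 1.68% to 1.83% in LPS and 1.87% to 1.97% in vehicle. The RNA share was 0.982% to 1.07% in LPS+Dex, 1.03% to 1.1% in LPS and 1.04% to 1.15% in vehicle, with overlapping ranges. These shares are of counts before TMM scaling. Without the 3 libraries the LPS change of footprints was 0.54 ± 0.08 for HK2 and -0.68 ± 0.17 for FBP1, and the change for LPS+Dex against LPS was 0.42 ± 0.08 for PFKP.

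Footprints followed RNA for most members. With LPS, 1 of 30 was higher in TE and 1 lower, against 0.987% and 0.526% of 13679 genes tested. PFKFB3, which rose in RNA, rose further in footprints, a TE change of 0.66 ± 0.16 (SE, adjusted p = 0.031). PFKFB4, which fell in RNA, fell further, a TE change of -0.93 ± 0.18 (SE, adjusted p = 0.0044). As a ratio of mean CPM, footprints over RNA, PFKFB3 stood at 1.2 in LPS+Dex, 1.24 in LPS and 0.8 in vehicle, and PFKFB4 at 0.41, 0.42 and 0.81 in the same treatments. The PFKFB4 call held in every fit that left out 1 library. The PFKFB3 call was lost without vehicle RNA replicate 1, 3 or 4, LPS RNA replicate 1, 2 or 4, vehicle footprint replicate 5 or LPS footprint replicate 2 (adjusted p of 0.054 to 0.077).

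PFKL showed the opposite form, with a footprint rise smaller than its RNA rise. Its TE change of -0.42 ± 0.17 (SE, adjusted p = 0.28) passed under the replicate block (-0.43 ± 0.09, adjusted p = 0.0024), as did those of ENO2 (0.98 ± 0.23, adjusted p = 0.01) and PFKP (0.40 ± 0.11, adjusted p = 0.03), bringing the count to 5, when 6.58% of all genes passed. For LPS+Dex against LPS no member passed in TE by edgeR's quasi-likelihood test, by DESeq2 or by limma on same-number ratios, against 0.0366% of all genes by edgeR, and 1 had an unadjusted p under 0.05. The PDK4 footprint-to-RNA difference there was 0.40 ± 0.46 (SE, adjusted p = 0.94).

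**Figure D5:**
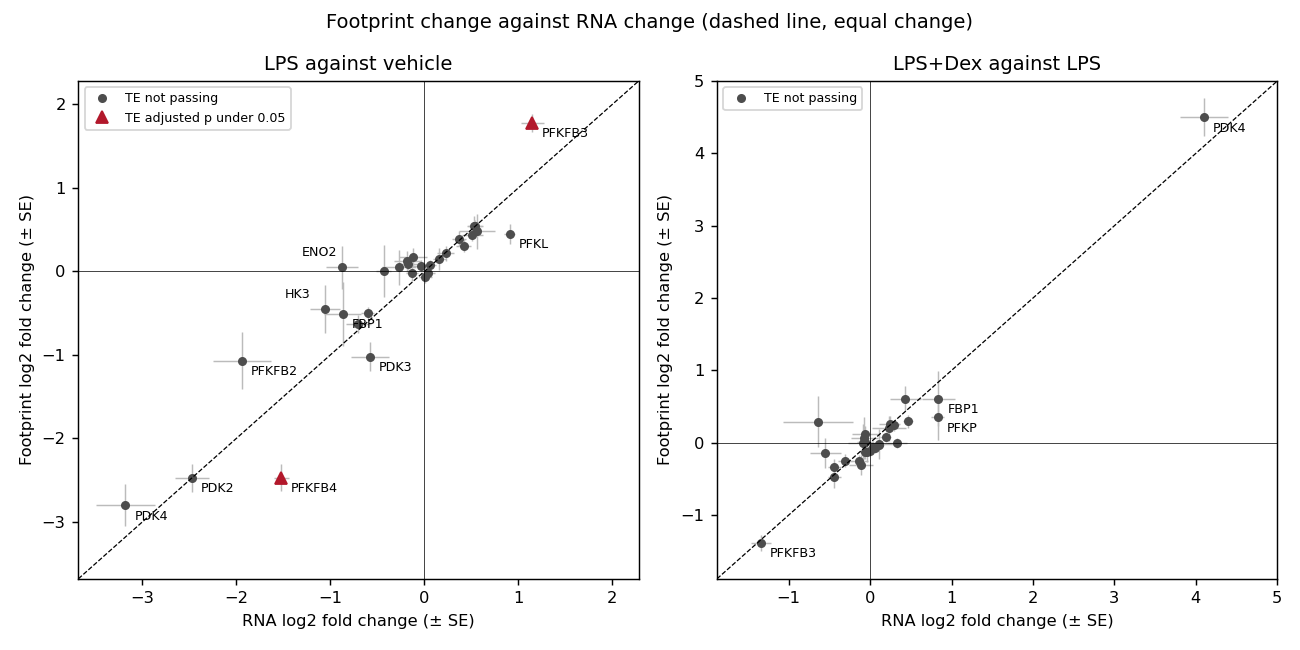
Footprint log2 fold change (vertical axis) against RNA log2 fold change (horizontal axis) of the 30 tested members, with standard errors, for LPS against vehicle on the left and LPS+Dex against LPS on the right; the dashed line marks equal change, and triangles mark a TE adjusted p under 0.05. PFKFB3 lies above the line at 1.15 and 1.78, PFKFB4 below it at -1.52 and -2.47, and no member is marked on the right.

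The comparison of LPS+Dex with vehicle asks how far cells with both agents stood from unstimulated cells, and it shares the LPS+Dex and vehicle libraries with the comparisons above. In RNA 10 of 30 members were higher and 7 lower (33.3% and 23.3%), against 29.2% and 31% of all genes. In footprints 8 were higher and 5 lower (26.7% and 16.7%), against 24.4% and 22%. ENO1, LDHA, PDHA1, PDK4, PFKL and TKT were higher in both assays, and HK1, PDHB, PDK2 and PFKFB4 lower in both. PFKL stood 0.83 ± 0.06 (SE, adjusted p = 2.9e-08) above vehicle in RNA, PDK2 at -2.04 ± 0.17 (SE, adjusted p = 2e-07) and PFKFB4 at -1.95 ± 0.08 (SE, adjusted p = 1.5e-10). In footprints the same genes gave 0.44 ± 0.12 (SE, adjusted p = 0.0082), -1.87 ± 0.17 (SE, adjusted p = 3.6e-07) and -2.93 ± 0.17 (SE, adjusted p = 2.7e-09). PDHA1, the E1 alpha chain, was higher by 0.60 ± 0.08 (SE, adjusted p = 1.4e-05) in RNA and 0.48 ± 0.07 (SE, adjusted p = 5.1e-05) in footprints, and PDHB, its beta chain, changed by -0.31 ± 0.07 (SE, adjusted p = 0.0014) and -0.26 ± 0.08 (SE, adjusted p = 0.012). TKT was higher by 0.46 ± 0.08 (SE, adjusted p = 0.00035) and 0.26 ± 0.08 (SE, adjusted p = 0.022), LDHA by 0.34 ± 0.06 (SE, adjusted p = 0.00028) and 0.28 ± 0.09 (SE, adjusted p = 0.02), and ENO1 by 0.31 ± 0.07 (SE, adjusted p = 9e-04) and 0.26 ± 0.09 (SE, adjusted p = 0.033). HK1 changed by -0.46 ± 0.13 (SE, adjusted p = 0.0061) in RNA and -0.37 ± 0.11 (SE, adjusted p = 0.014) in footprints.

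Several small footprint changes lost their call when 1 library was left out, with the direction kept. HK1 lost its call without vehicle replicate 1, LDHA without LPS+Dex replicate 1, PDHB without vehicle replicate 3, TKT without vehicle replicate 5, and ENO1 without vehicle replicates 3 or 5 or LPS+Dex replicate 1, at adjusted p of 0.051 to 0.062. PDK1 lost its footprint call in 10 of 15 fits that left out 1 library (adjusted p of 0.053 to 0.11), and it held without vehicle replicate 5, LPS replicates 2 or 4 or LPS+Dex replicates 1 or 4. In RNA, GPI lost its call without vehicle replicates 2, 3 or 4 or LPS+Dex replicates 2 or 3 (adjusted p of 0.056 to 0.081), and TPI1 without vehicle replicates 3 or 4 or LPS+Dex replicates 2 or 4 (adjusted p of 0.052 to 0.081).

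GPI, PFKP, TALDO1 and TPI1 passed as higher than vehicle in RNA and did not pass in footprints, and ENO2, HK3 and PFKFB2 passed as lower in the same way. PDK1 and PFKFB3 passed as higher in footprints and not in RNA, and PDK3 as lower. The RNA changes were 0.17 ± 0.06 (SE, adjusted p = 0.028) for GPI, 0.41 ± 0.08 (SE, adjusted p = 0.00048) for PFKP, 0.38 ± 0.11 (SE, adjusted p = 0.0068) for TALDO1 and 0.21 ± 0.07 (SE, adjusted p = 0.027) for TPI1. They were -0.97 ± 0.17 (SE, adjusted p = 0.00025) for ENO2 and -1.12 ± 0.16 (SE, adjusted p = 3.6e-05) for HK3. In footprints PDK1 changed by 0.29 ± 0.11 (SE, adjusted p = 0.049) and PDK3 by -0.83 ± 0.16 (SE, adjusted p = 0.00076). Without the block the TE change passed for none of these 10 genes. Under the replicate block the footprints of HK2, PFKP, PGD and TALDO1 were also higher and those of PFKFB2 and GAPDH also lower, 19 calls in all against 13, when 61.1% of all genes passed. In TE 1 member, PFKFB4, was lower, at -0.96 ± 0.18 (SE, adjusted p = 0.0034), and none higher, against 0.424% and 1.12% of all genes. With the replicate block 6 members passed in TE, when 10.4% of all genes did, among them PFKFB3 (0.62 ± 0.12, adjusted p = 0.0021, against 0.62 ± 0.16 (SE, adjusted p = 0.052) without the block), PDK4 (0.84 ± 0.26, adjusted p = 0.038) and PFKFB2 (1.76 ± 0.38, adjusted p = 0.0044).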

How the data were processed

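Raw counts per Ensembl gene, as deposited by the authors, come in 2 tables, 1 for poly(A) RNA-seq and 1 for ribosome footprints, with 1 column per library and no pooling. For both assays the submitters' processing notes list featureCounts 2.0.1, STAR 2.7.10a and DESeq2 1.26.0, with GRCh38/hg38 as build, and Bowtie2 2.4.5 in addition for footprints. Annotation, counted feature, strand setting and the handling of multi-mapped reads are not given, so reads of genes that overlap or have close copies cannot be told apart. Of 20453 genes, 20407 had a symbol.

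Counts were tested in R 4.3.3 with edgeR 4.0.16 (filterByExpr with a minimum count of 10 and total of 15, TMM scaling, quasi-likelihood F test, 2-sided). RNA (12 libraries) and footprints (15) were fitted separately over the 3 treatments, and TE in 1 fit over all 27. Scaling makes each change relative to the average gene. The steps were checked on simulated counts. CPM, means and SDs were computed from the deposited counts. The members and lists were chosen with earlier results of these data known, and 2 list genes are not reported here. All members are counted, a fold change is given where a member was called in that comparison, and library values are given for members called the same way in both assays, for the 5 largest RNA rises and 4 largest falls with LPS, for the 4 largest of each for LPS+Dex against LPS and for GAPDH. HK3 and ENO2 library values and values given as not passing were chosen after they were seen.

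Same-numbered footprint libraries deviated together, with a correlation over 0.1 in 15 of 15 pairs (median 0.274, lowest 0.189), against 34 of 60 pairs of different number (median 0.163). A second fit of footprints and of TE therefore carried the number as a replicate block. In TE the block covered the RNA libraries too, numbered separately from the footprint libraries. Without the libraries numbered 4, 3 of 12 same-number pairs (median 0.0445) and 2 of 36 others (median -0.0186) exceeded 0.1. The labels do not say what a number marks. Alternatives were DESeq2 1.42.0, its size factors within edgeR, no filter, the block, leaving out each library or the footprint libraries numbered 4, and limma 3.58.1 on ratios of same-numbered libraries (prior count 2). Promoters are RefSeq windows of 300 bases. Figures were drawn with matplotlib 3.10.9.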

Additional observations from a re-analysis of the deposited data

Results flagged for a closer look

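In 180 groups of 4 or 5 libraries (30 members, 2 assays, 3 treatments), 22 had 1 library farther from the rest than Dixon's limit allows; chance alone flags about 1 in 20 groups. Of these, 18 were in footprints, 15 of them the library numbered 4, and 4 were in RNA. Dixon's limit was applied to CPM after TMM scaling. The height of HK2 in the LPS and LPS+Dex libraries numbered 4 depended on that scaling. What sets the number 4 libraries apart was not tested.

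In LPS+Dex footprints, library 4 was far above its group for HK2 at 161 CPM, PFKP at 81.7 CPM, FBP1 at 16.5 CPM and ENO2 at 8.78 CPM. In LPS footprints it was far above for HK2 at 181 CPM, PFKP at 69.2 CPM, FBP1 at 11.5 CPM and ALDOA at 4110 CPM. In vehicle footprints it was far above for PFKP at 57.5 CPM, PFKFB4 at 117 CPM and PGD at 1340 CPM, and far below for HK1 at 93.0 CPM, PFKM at 2.61 CPM, PDK2 at 9.43 CPM and PDK3 at 4.47 CPM. LPS+Dex footprint library 5 was far below its group for PGK1 at 644 CPM, ENO1 at 2640 CPM and TKT at 562 CPM. In RNA, HK3 stood high in LPS library 2 at 5.79 CPM, PFKL high in LPS+Dex library 2 at 473 CPM, PDK4 high in vehicle library 3 at 5.9 CPM, and PGD low in LPS library 4 at 812 CPM.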

How the results depend on the processing

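No reported direction turned under any setting tried. The footprint count for LPS+Dex against LPS (6) moved most. It was 3 with no filter, 12 with the replicate block, 12 without the libraries numbered 4 and 15 with both, a combination chosen after seeing the data. The share of all genes that passed moved too, at 10.8%, 30.9%, 31.5% and 33% in the same order. Single omissions gave 2 to 8, when 14.2% to 19.2% of all genes passed. Leaving out LPS+Dex 3 gave 2, and leaving out LPS+Dex 1, LPS+Dex 2, LPS+Dex 5, LPS 2, LPS 4 or vehicle 2 gave 3. With no filter the LDHA, PDHB and TALDO1 footprint calls were lost there (adjusted p 0.073, 0.093 and 0.074), and PDHB also with DESeq2's size factors (0.062). For LPS against vehicle in TE (2), the block gave 5, leaving out the libraries numbered 4 gave 4, limma on same-number ratios 1 and single omissions 1 to 3 (3 without LPS+Dex footprint library 4, and 1 without each of the libraries named with PFKFB3); PFKFB3 was 0.64 with an adjusted p of 0.17 in limma, whose pairing of the assays has little behind it (1 of 12 same-number pairs of RNA and footprint libraries correlated over 0.1). For LPS+Dex against vehicle in TE (1), DESeq2 gave 3, the block 6, leaving out the libraries numbered 4 gave 5 and single omissions 1 to 2 (2 on omitting LPS+Dex RNA 3, vehicle RNA 2, or, among footprints, LPS+Dex 4, LPS+Dex 5, LPS 1, LPS 4, LPS 5, vehicle 1 or vehicle 4). Of all genes, TE for LPS against vehicle passed in 6.58% with the block, 4.94% without the libraries numbered 4 and 1.07% in limma. Single omissions gave 0.927% to 2.19% there. For LPS+Dex against vehicle the share was 3.58% with DESeq2, 10.4% with the block and 7.6% without the libraries numbered 4. Single omissions gave 0.942% to 2.41% in that comparison. The cause of these moves was not tested.

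Single omissions gave 14 to 16 footprint calls for LPS against vehicle and 10 to 14 for LPS+Dex against vehicle. Of all genes, 48.5% to 56% and 41.5% to 49.1% passed in those fits. In RNA they gave 17 to 21 calls for LPS against vehicle, 9 to 11 for LPS+Dex against LPS and 15 to 18 for LPS+Dex against vehicle. The shares of all genes were 57.5% to 62%, 24.6% to 34% and 54.5% to 61% in the same order. In TE for LPS+Dex against LPS every setting gave 0. Neither RNA nor footprint numbers were taken as pairs in the main fit, since the labels do not say what a number marks. Values by gene under the block are given above for footprints and TE, and RNA under the block is given as counts only. Same-number RNA pairs exceeded 0.1 in 7 of 12 cases (median 0.212), against 13 of 36 pairs of different number (median -0.0431). Without the RNA libraries numbered 4 it was 6 of 9 (median 0.275) against 5 of 18 (median -0.177). A library's closest match in another treatment bore its own number in 12 of 24 cases. With a replicate block the RNA counts were 21 for LPS against vehicle, 13 for LPS+Dex against LPS and 17 for LPS+Dex against vehicle. In the same fits 66.4%, 36.5% and 64.5% of all genes passed. PFKFB2, PDK4, PDK3 and HK3 rest on low counts, and the PGAM1 counts allow no comparison. ENO2, FBP1 and PDK2 were low as well, with lowest libraries of 46, 61 and 46 counts in RNA and 44, 74 and 33 in footprints.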

Other observations

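Lists of neighbouring pathways, none of them holding a member, were read with the same edgeR test, and the largest called RNA rise and fall of each list are named. Of 14 tested genes of gluconeogenesis and glycogen, 3 were higher and 10 lower in RNA with LPS, and 4 were higher and 0 lower for LPS+Dex against LPS; in footprints 3 of 13 were higher and 7 lower with LPS, and 4 higher and 0 lower for LPS+Dex against LPS. The shares of all genes stand with the member counts above. UGP2, which makes the UDP-glucose from which glycogen is built, had 168, 152, 176 and 137 CPM in LPS+Dex RNA, 46.9, 37.2, 44.4 and 54.7 CPM in LPS and 66.6, 71.1, 80.2 and 79 CPM in vehicle. The 3 groups did not overlap. Its RNA change on the log2 scale was -0.70 ± 0.11 (SE, adjusted p = 1e-04) with LPS and 1.79 ± 0.12 (SE, adjusted p = 4.7e-08) for LPS+Dex against LPS. PYGB, a glycogen phosphorylase chosen after its values were seen, had 153, 144, 162 and 142 CPM in LPS+Dex RNA, 90.1, 81.4, 92.5 and 91.2 CPM in LPS and 154, 128, 184 and 174 CPM in vehicle. LPS was the lowest group and the other 2 overlapped, with changes of -0.85 ± 0.10 (SE, adjusted p = 5.2e-06) for LPS and 0.76 ± 0.10 (SE, adjusted p = 4.4e-05) for LPS+Dex against LPS. PC, pyruvate carboxylase, fell in RNA with LPS, a change of -1.42 ± 0.08 (SE, adjusted p = 4.1e-09) and changed in footprints by -0.56 ± 0.13 (SE, adjusted p = 0.0019), a TE change of 0.89 ± 0.15 (SE, adjusted p = 0.0013). The largest LPS rise of that list was 1.10 ± 0.33 (SE, adjusted p = 0.0094) for PPP1R3C, a subunit that targets a phosphatase to glycogen, on 5 to 27 RNA counts per library.

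Among 8 tested partners of pyruvate dehydrogenase and carriers of pyruvate into mitochondria, 3 were higher and 0 lower in RNA with LPS, and 2 were higher and 2 lower for LPS+Dex against LPS. PDHX, the component that binds E3 to the complex, changed by 1.13 ± 0.09 (SE, adjusted p = 7.3e-08) with LPS and -0.78 ± 0.09 (SE, adjusted p = 8.4e-06) for LPS+Dex against LPS, and PDP1, a phosphatase that reverses the PDK kinases, by 0.46 ± 0.12 (SE, adjusted p = 0.012) for LPS+Dex against LPS. Of 11 glucose and lactate transport genes, 3 were higher and 5 lower in RNA with LPS and 2 and 2 for LPS+Dex against LPS; SLC2A6, a glucose transporter family member, rose with LPS by 2.60 ± 0.06 (SE, adjusted p = 5.8e-13) and SLC2A5, a fructose carrier, changed by -1.39 ± 0.11 (SE, adjusted p = 1.4e-07). In footprints 1 and 1 of them passed with LPS, and 3 and 5 under the replicate block, where 67.1% of all genes passed. For LPS+Dex against LPS, SLC16A1, a lactate and pyruvate carrier, changed in RNA by -0.49 ± 0.13 (SE, adjusted p = 0.0087) and SLC2A5 by 0.73 ± 0.11 (SE, adjusted p = 2e-04). Of 13 other glycolytic isozymes and accessory enzymes, 2 were higher and 4 lower in RNA with LPS and 2 and 2 for LPS+Dex against LPS. GPD2, the mitochondrial glycerol 3-phosphate dehydrogenase, changed by 0.99 ± 0.29 (SE, adjusted p = 0.0084) with LPS and -1.10 ± 0.29 (SE, adjusted p = 0.011) for LPS+Dex against LPS. PFKFB1 changed by -1.22 ± 0.34 (SE, adjusted p = 0.0063) with LPS, on 5 to 32 RNA counts per library, and ENO3, the muscle enolase, by 0.62 ± 0.19 (SE, adjusted p = 0.023) for LPS+Dex against LPS. Of 8 other pentose phosphate genes, 1 was higher and 1 lower in RNA for LPS+Dex against LPS, TKTL1 at 0.52 ± 0.09 (SE, adjusted p = 6e-04) and PRPS2 at -0.54 ± 0.08 (SE, adjusted p = 0.00021). With LPS, PRPS2 changed by 0.35 ± 0.08 (SE, adjusted p = 0.0022), and the largest fall among them was -0.21 ± 0.08 (SE, adjusted p = 0.037) for PRPS1. Of 17 tricarboxylic acid cycle genes, 5 were higher and 2 lower in RNA with LPS and 1 and 1 for LPS+Dex against LPS. IDH3A changed by 0.51 ± 0.07 (SE, adjusted p = 2.7e-05) with LPS and -0.25 ± 0.07 (SE, adjusted p = 0.016) for LPS+Dex against LPS, and IDH2 by -0.59 ± 0.06 (SE, adjusted p = 2.3e-06) with LPS and 0.74 ± 0.06 (SE, adjusted p = 8.4e-07) for LPS+Dex against LPS.

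Of 15 tested regulators of glycolytic genes, 3 were higher and 5 lower in RNA with LPS and 5 and 1 for LPS+Dex against LPS. HIF1A, the oxygen-regulated activator of many glycolytic genes, had 323, 245, 323 and 247 CPM in LPS+Dex RNA, 370, 286, 425 and 426 CPM in LPS and 75.7, 76.7, 124 and 99.9 CPM in vehicle, with vehicle below every other library. Its LPS change was 2.00 ± 0.18 (SE, adjusted p = 2.7e-07) in RNA and 2.13 ± 0.11 (SE, adjusted p = 6.1e-10) in footprints. FOXO1, a known activator of PDK4 in other tissues, had 15.6, 12.9, 16.2 and 10.9 CPM in LPS+Dex RNA, 2.31, 1.5, 2.29 and 3.07 CPM in LPS and 1.17, 1.07, 2.43 and 2.49 CPM in vehicle. LPS+Dex lay above all others, at 2.59 ± 0.26 (SE, adjusted p = 3.3e-06) against LPS in RNA and 2.91 ± 0.16 (SE, adjusted p = 1.3e-08) in footprints. KLF15, a glucocorticoid-responsive factor, changed by -1.52 ± 0.26 (SE, adjusted p = 0.00017) in RNA with LPS and by 1.99 ± 0.26 (SE, adjusted p = 4.1e-05) for LPS+Dex against LPS. EPAS1, a relative of HIF1A, changed by -0.72 ± 0.25 (SE, adjusted p = 0.041) for LPS+Dex against LPS. Whether any of these regulators bears on the members was not tested.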
